A study of Mus musculus with 8 samples.

Results

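The genes of the receptors for glutamate, GABA and glycine were compared between medulloblastomas of mice, tumours of the cerebellum, with and without deletion of Bcl2l1. Members were taken by gene symbol: Gria, Grik, Grin, Grid or Grm followed by a digit, Gabr followed by a letter, Gabbr1, Gabbr2, Glra followed by a digit, and Glrb. This gave 47 of the 22180 genes with a probe set of their own, each read from its probe set with the highest mean over all arrays. Of these, 46 encode receptors or receptor subunits, and Grid2ip encodes a synaptic scaffold protein and is kept apart below. Of the receptor genes, 39 passed the filter on dim genes and 7 lay below it (Gabrp, Gabrq, Gabrr1, Gabrr3, Glra3, Grin3b and Grm8).

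Tumours were taken at postnatal day 15. The Bcl2l1-deleted group had the genotype Math1-Cre/SmoM2/Bcl2l1 f/f and the control group Math1-Cre/SmoM2, with 4 tumour arrays in each. Both groups thus carried Cre driven by the Math1 (Atoh1) promoter, active in granule neuron progenitors, and SmoM2, a mutant Smoothened that keeps hedgehog signalling on, so the controls are tumours and not normal cerebellum. Bcl2l1 encodes BCL-xL, which blocks apoptosis, and Math1-Cre does not target vessels or immune cells. A separate status label calls Bcl2l1 deleted in every sample, so groups were taken from the titles, which the genotypes match. No agent was given to the mice. The labels do not say whether each array is a different animal, so p-values measure the spread between these samples, which may be technical.

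Glutamate excites neurons through ion channels (AMPA, kainate and NMDA receptors, with the related delta receptors) and acts through G-protein-coupled metabotropic receptors. GABA and glycine act through chloride channels built of several subunits, and GABA also through the G-protein-coupled GABA-B receptor. Subunits change as neurons mature. In the cerebellum, granule neurons exchange Grin2b for Grin2c in their NMDA receptors and begin to make Gabra6 and Gabrd as they settle among their synaptic partners, and glycine receptors of the embryonic brain carry Glra2 where those of the adult carry Glra1. In this tumour model most cells resemble dividing granule neuron progenitors, beside a minority of differentiated neurons.

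The values are log2 RMA expression values, and the small number of arrays limits their precision. Bcl2l1 itself was at 5.46, 5.47, 5.69 and 5.32 on the Bcl2l1-deleted arrays and at 6.88, 6.57, 6.93 and 6.98 on the control arrays (limma, adjusted p = 0.00509). The position of its probes relative to the floxed exons was not analysed here. Control replicate 2 stood apart, with correlations of at most 0.948 with any other array and a narrow spread of values. The interquartile range over named genes was 3.585 to 3.659 on the Bcl2l1-deleted arrays, 2.396 on control replicate 2 and 3.290 to 3.505 on the remaining controls. The median of 1390 chemosensory receptor genes, which report mostly background in brain, was 2.79 to 2.92 on the Bcl2l1-deleted arrays and 2.94 to 3.61 on the control arrays. The median gene tested differed by 0.17 log2, being higher after Bcl2l1 deletion, so each change below is relative to that median, while its SE and p are those of the fitted change. In tumour tissue, fewer cells of a type and less RNA per cell cannot be told apart.

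Most receptor genes that passed the test were lower in the Bcl2l1-deleted tumours, and a pair of GABA-A subunit genes was higher. Of 39 receptor genes tested, 7 fell (Grin2b, Grik2, Grm4, Gabra6, Gabrd, Gabra2 and Glra2), 2 rose (Gabrb1 and Gabra4) and 30 did not pass (limma, adjusted p of at most 0.05 over all 15526 genes tested). The lower share was 17.9% of the receptor genes, against 1.60% of all genes tested, and the higher share was 5.13%, against 4.93% of all genes tested. In either direction it was 23.1%, against 6.52%. Relative changes ran between -3.16 for Gabra6 and 0.98 for Gabrb1, with a median of -0.115 over the 39 genes and 28 of them below the median gene. These 28 include Grin2a and Grm6, which passed the dim filter only through the controls. Groups did not overlap for 9 receptor genes, 7 lower and 2 higher, where 4.46% and 19.0% of all genes tested did so in these directions and 23.4% in either. These 9 include Glra1, which did not pass, and not Gabra6, which did.

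The split followed the scaling, and the number of calls depended on the model and on single arrays. Centring each array on the genes tested gave 10 lower and 1 higher, against 4.50% and 2.51% of all genes tested, and centring on all probe sets gave 4 lower and 2 higher, against 1.10% and 8.61%. Without Bcl2l1-deleted replicate 1, 2 or 4 or control replicate 4, no receptor gene passed in limma, although 9 or 10 were lower and 3 higher at an unadjusted p under 0.05 in each of these fits. The calls over all genes dropped too, to 20, 33, 216 and 157 of 15526 in these 4 fits, against 1013 with all arrays. Without Bcl2l1-deleted replicate 3, 5 of the 9 calls remained (6 lower and 0 higher, with 3 higher at an unadjusted p under 0.05), and without control replicate 3, 2 remained (4 lower and 0 higher, again with 3). Over all genes 448 and 461 passed in this pair of fits. Without control replicate 1, 8 remained. Without control replicate 2 all 9 calls remained, with 9 lower and 2 higher, against 4.46% and 8.95% of all genes tested. With all arrays kept, receptor genes numbered 1 lower and 0 higher (3 higher at an unadjusted p under 0.05) with the level of Xist, a transcript of female cells, as a covariate. They numbered 2 and 0 (again 3 at an unadjusted p) with a replicate block and 2 and 1 without a dim filter. Over all genes 200, 508 and 548 passed in these 3 fits. Xist itself was at 10.08, 9.63, 4.915 and 4.70 on the Bcl2l1-deleted arrays and at 10.54, 9.89, 4.525 and 10.33 on the control arrays, so each group held both high and low arrays. All 9 genes kept their direction in every alternative that gave them a value.

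**Figure D1:**
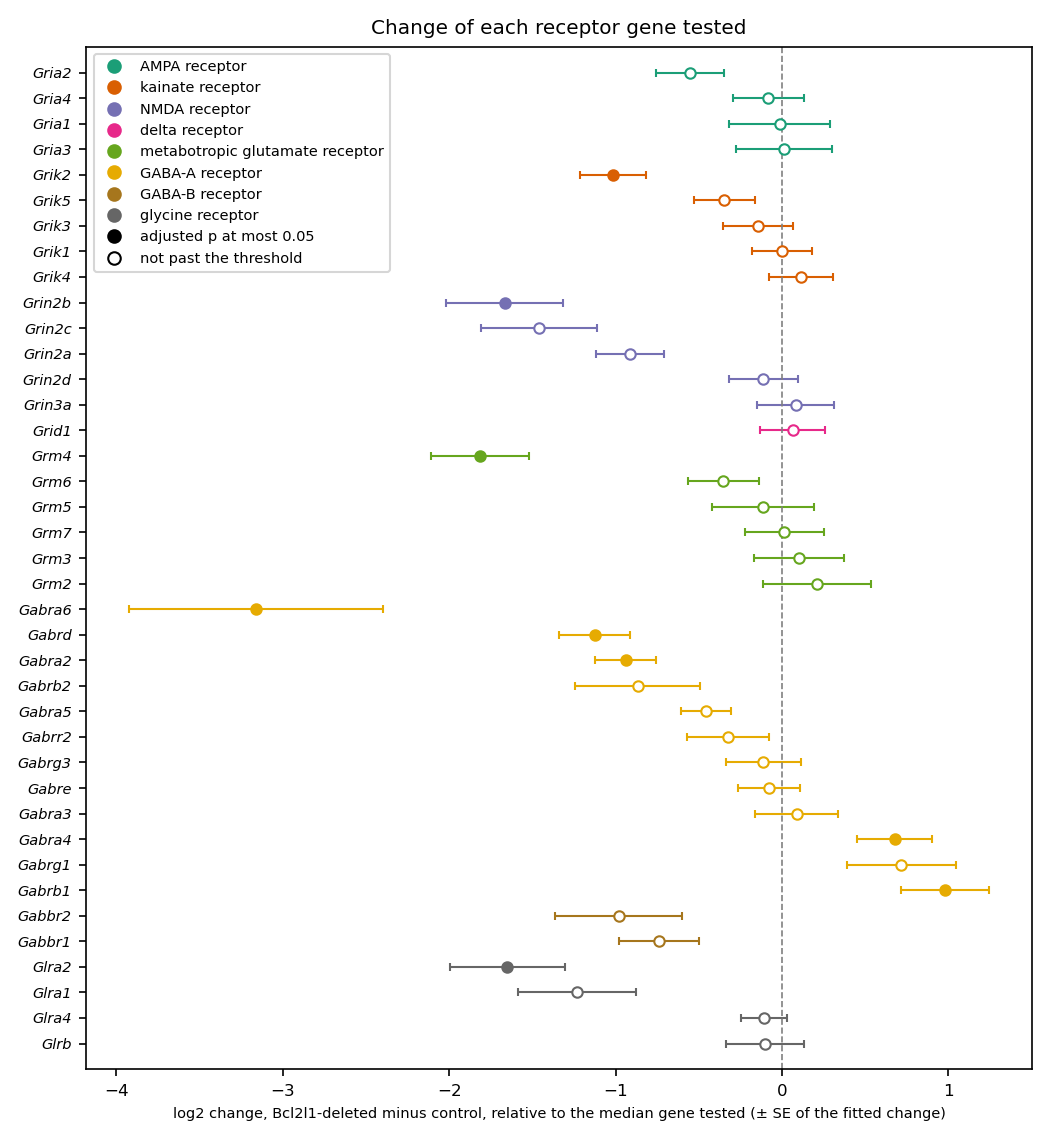
Change of each of the 39 receptor genes tested, as the log2 difference of Bcl2l1-deleted minus control relative to the median gene tested, grouped by receptor class. Bars are the SE of the fitted change and filled points passed an adjusted p of 0.05. The 7 filled points left of 0 run between -3.16 and -0.94, and Gabra4 and Gabrb1 are the filled points right of 0.

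The promoters of 4 GABA-A subunit genes are shown because Gabra6 had the largest fall, and Gabra2, Gabra4 and Gabrb1 are neighbours of which the first fell and the others rose. RefSeq promoter sequences (build GRCm38.p6, 250 bases before to 50 after the start site) matched 6 of the 9 genes past the threshold. Each is written 5′ to 3′ on the gene's own strand: Gabra6 at chr11:42321023-42321322 (minus strand), Gabra2 at chr5:71095800-71096099 (minus strand), Gabra4 at chr5:71658259-71658558 (minus strand) and, for the first of its listed starts, Gabrb1 at chr5:71657671-71657970 (plus strand). Capitals mark TTGGC on either strand (GCCAA on the other), the core bound by nuclear factor I proteins, which are known to act on Gabra6 in granule neurons.
Gabra6: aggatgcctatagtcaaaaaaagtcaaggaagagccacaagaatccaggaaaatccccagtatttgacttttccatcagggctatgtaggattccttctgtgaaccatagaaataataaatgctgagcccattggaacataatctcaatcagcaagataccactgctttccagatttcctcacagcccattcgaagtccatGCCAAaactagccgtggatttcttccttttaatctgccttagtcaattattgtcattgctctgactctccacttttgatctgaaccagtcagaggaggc
Gabra2: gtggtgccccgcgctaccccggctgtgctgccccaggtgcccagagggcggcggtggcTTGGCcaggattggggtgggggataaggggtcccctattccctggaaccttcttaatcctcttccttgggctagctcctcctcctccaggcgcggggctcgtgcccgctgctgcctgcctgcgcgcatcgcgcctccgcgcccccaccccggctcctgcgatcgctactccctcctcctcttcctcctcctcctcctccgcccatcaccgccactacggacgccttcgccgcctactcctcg
Gabra4: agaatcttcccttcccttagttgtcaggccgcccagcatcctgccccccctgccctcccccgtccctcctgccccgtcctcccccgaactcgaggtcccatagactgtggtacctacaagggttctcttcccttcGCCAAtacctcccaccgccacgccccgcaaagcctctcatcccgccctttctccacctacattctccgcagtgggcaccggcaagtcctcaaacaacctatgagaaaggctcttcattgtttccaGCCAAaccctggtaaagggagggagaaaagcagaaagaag
Gabrb1: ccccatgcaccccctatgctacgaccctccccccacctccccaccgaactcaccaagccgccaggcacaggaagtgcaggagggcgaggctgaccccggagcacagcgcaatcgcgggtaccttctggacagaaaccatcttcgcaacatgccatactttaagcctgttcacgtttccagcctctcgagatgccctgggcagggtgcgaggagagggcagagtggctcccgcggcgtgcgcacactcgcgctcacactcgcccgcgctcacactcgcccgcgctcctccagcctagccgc

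TTGGC lay in the printed promoters of Gabra6, Gabra2 and Gabra4 and not in that of Gabrb1. Over the 7 promoters listed for the genes past the threshold it occurred in 4, the last being the other listed start of Gabrb1, and 46.7% of the 32851 mouse promoters of the same length hold it. The E-box CANNTG occurred in 2 of the 7, against 72.3% of all promoters, and GACCACCCA, the core bound by the GLI factors of hedgehog signalling, in 0 of the 7, against 0.253% of all promoters. Both strands were searched, no match was required to be apart from another motif, and such matches describe letters and not sites in use. Gabra4 and Gabrb1 lie next to each other on chromosome 5, and their first listed starts are 387 bases apart on opposite strands and run towards each other, so the beginnings of these transcripts overlap. Whether probes of either gene lie in that stretch was not analysed here.

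Among the NMDA receptor genes, Grin2b fell and the other subunits tested did not pass. Grin2b, the subunit that dominates in immature neurons, was at 4.62, 5.68, 5.72 and 4.99 on the Bcl2l1-deleted arrays and at 6.42, 5.95, 7.10 and 7.53 on the control arrays. Every Bcl2l1-deleted array was below every control array (relative change -1.67, SE 0.35, adjusted p = 0.0373). Its other probe set was dim, at 3.27 to 3.66 and at 3.37 to 3.94 in the same order of groups, and differed by -0.26 without correction for the median gene. Grin2c, which replaces Grin2b in maturing granule neurons, had 5.05, 4.98, 5.82 and 4.39 in the Bcl2l1-deleted tumours and 6.48, 6.13, 5.61 and 7.16 in the controls. The groups crossed at Bcl2l1-deleted replicate 3 and control replicate 3, and the change of -1.46 ± 0.35 (SE) missed the threshold (adjusted p = 0.0526). It passed in 7 of 21 alternatives, among them leaving out control replicate 2 (adjusted p = 0.0475). Such counts of alternatives, here and below, include the fit without both control replicate 2 and Bcl2l1-deleted replicate 3, chosen after seeing the data. The other Grin2c probe set was dim, at 3.62 to 4.01 in the Bcl2l1-deleted tumours and 3.95 to 4.60 in the controls. It differed by -0.47 without correction for the median gene. Grin2a, the other subunit of mature NMDA receptors, had a change of -0.91 ± 0.21 (SE, adjusted p = 0.0557), and lay between 3.85 and 4.38 in the Bcl2l1-deleted tumours and between 4.30 and 5.17 in the controls, close to the dim filter at 4.38. Its mean was 4.03 in the Bcl2l1-deleted tumours and 4.78 in the controls, so it passed that filter only through the controls.

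Grin2d, a subunit of early brain stem and interneurons, had a change of -0.11 (adjusted p = 0.856), with 4.94 to 5.51 in the Bcl2l1-deleted tumours and 4.65 to 5.50 in the controls. Grin3a, which lowers the calcium flow of NMDA receptors early in life, had 7.56 to 8.06 and 6.87 to 7.81 in the same order (change 0.08, adjusted p = 0.456). The 3 NMDA genes with the lowest changes were thus both an immature and a mature kind of subunit. Changes of Grin2d and Grin3a took either sign over the alternatives.

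Of 5 kainate receptor genes tested, Grik2 fell and the others did not pass. Grik2, the main kainate receptor channel of granule neurons, was at 6.80, 7.06, 7.04 and 7.001 in the Bcl2l1-deleted tumours and at 7.88, 7.35, 7.71 and 8.31 in the controls (relative change -1.01, SE 0.20, adjusted p = 0.0378). The Bcl2l1-deleted values were close together and all below the controls. Grik5, a high-affinity partner subunit, was at 8.82 to 8.95 in the Bcl2l1-deleted tumours and at 8.55 to 9.32 in the controls (change -0.35, adjusted p = 0.518). Grik1, Grik3 and Grik4 had changes between -0.14 and 0.11.

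None of the 4 AMPA receptor genes passed, with limma, and 0 had an unadjusted p under 0.05. Gria2, the subunit that keeps most AMPA receptors impermeable to calcium, had 8.78 to 9.45 in the Bcl2l1-deleted tumours and 9.16 to 9.77 in the controls, with a change of -0.55 ± 0.20 (SE, adjusted p = 0.225). Changes of Gria1, Gria3 and Gria4 lay between -0.08 and 0.01. Grid1, the delta receptor gene measured, had a change of 0.07 (adjusted p = 0.410), with a sign that turned in 5 of 21 alternatives. Grid2ip, the scaffold, had a change of -0.26 (adjusted p = 0.810).

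Grm4 fell, and it had the smallest p of all receptor genes. It encodes the presynaptic metabotropic receptor of parallel fibres, the axons of granule neurons. Values were 4.84, 5.08, 5.93 and 4.83 in the Bcl2l1-deleted tumours and 6.96, 6.24, 6.66 and 7.39 in the controls, without overlap (relative change -1.82, SE 0.29, adjusted p = 0.0173). Its call remained in 17 of 21 alternatives, the most of the 9 genes, and it was lost without Bcl2l1-deleted replicate 1, 2 or 4 or control replicate 4 (adjusted p = 0.0797, 0.0684, 0.0516 and 0.0549). The other metabotropic genes tested (Grm2, Grm3, Grm5, Grm6 and Grm7) had changes between -0.35 and 0.21, and none passed. The lowest of these changes was that of Grm6, with a mean of 4.374 in the Bcl2l1-deleted tumours and 4.555 in the controls. Grm6 passed the dim filter (4.378) only through the controls.

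The other calls were less stable. Grin2b passed in 14 of 21 alternatives, Gabrd in 13 of the 20 that gave it a value, Gabra6 and Gabrb1 in 12 of 21, Grik2 and Gabra2 in 11 of 21, Glra2 in 11 of 20 and Gabra4 in 8 of 21.

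**Figure D2:**
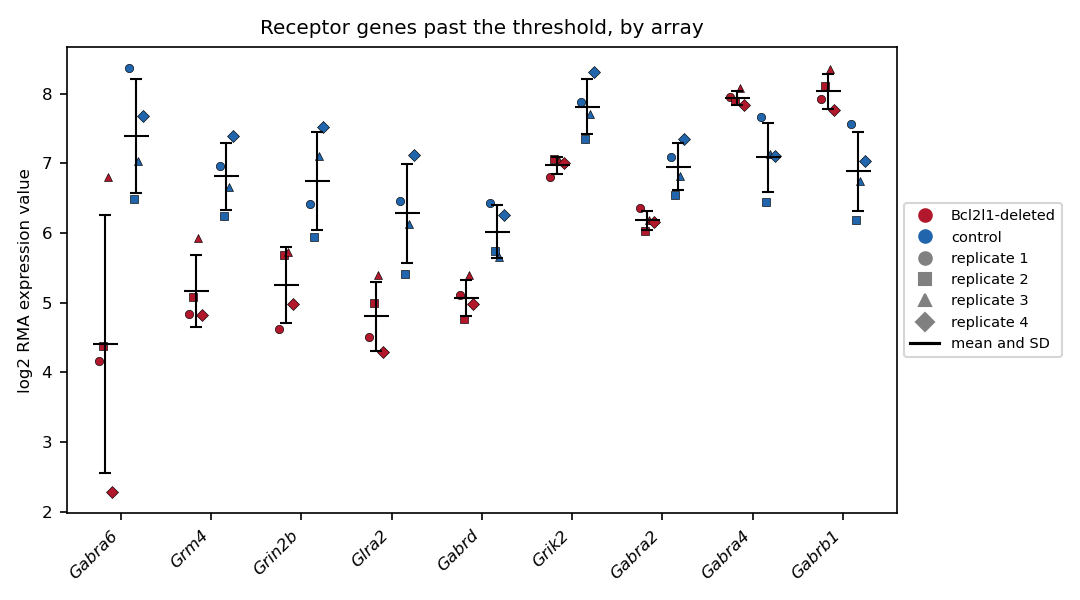
Log2 RMA values of the 9 receptor genes past the threshold on each of the 8 arrays, ordered by change, with Bcl2l1-deleted arrays left of controls and bars for mean and SD (n = 4 each). Gabra6 is the gene whose groups cross, at 6.80 on Bcl2l1-deleted replicate 3 and 6.48 on control replicate 2.

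GABA-A receptor genes moved in both directions. Of 12 tested, 3 fell (25.0%, against 1.60% of all genes tested), 2 rose (16.7%, against 4.93%) and 7 did not pass. The 2 that rose were the only receptor genes called higher, 5.13% of the 39 tested, which is close to the share of all genes. Gabra6, an alpha subunit made almost only by differentiated granule neurons, was at 4.16, 4.37, 6.80 and 2.28 in the Bcl2l1-deleted tumours and at 8.36, 6.48, 7.03 and 7.69 in the controls. Bcl2l1-deleted replicate 3 reached the range of the controls, the other Bcl2l1-deleted arrays lay below every control, and replicate 4 was below the chemosensory median of its array (2.92). The relative change was -3.16 ± 0.76 (SE, adjusted p = 0.0455). Leaving out Bcl2l1-deleted replicate 3 gave -3.96 (adjusted p = 0.0144), and leaving out Bcl2l1-deleted replicate 4 gave -2.45 (adjusted p = 0.0858). Gabrd, the delta subunit that joins Gabra6 in receptors outside synapses, was at 5.12, 4.77, 5.40 and 4.98 in the Bcl2l1-deleted tumours and at 6.43, 5.74, 5.65 and 6.25 in the controls. The groups did not overlap (relative change -1.13, SE 0.21, adjusted p = 0.0330).

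Gabra2, an alpha subunit of immature neurons, also fell. It was at 6.36, 6.03, 6.18 and 6.16 in the Bcl2l1-deleted tumours and at 7.09, 6.55, 6.82 and 7.34 in the controls (relative change -0.94, SE 0.19, adjusted p = 0.0394). Gabrb2, a beta subunit of mature synapses and a neighbour of Gabra6 on chromosome 11, had 5.85, 6.45, 7.68 and 5.92 in the Bcl2l1-deleted tumours and 7.66, 6.72, 6.92 and 7.38 in the controls. Bcl2l1-deleted replicate 3 was the highest of all 8 arrays, and the change of -0.87 ± 0.37 (SE) did not pass (adjusted p = 0.228).

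Gabrb1 and Gabra4 rose. Gabrb1, a beta subunit, was at 7.93, 8.10, 8.35 and 7.76 in the Bcl2l1-deleted tumours and at 7.56, 6.19, 6.75 and 7.03 in the controls (relative change 0.98, SE 0.26, adjusted p = 0.0344). Gabra4, an alpha subunit of receptors outside synapses, was at 7.95, 7.89, 8.08 and 7.83 and at 7.66, 6.45, 7.14 and 7.10 in the same order of groups (relative change 0.68, SE 0.23, adjusted p = 0.0499). For both, control replicate 2 was the lowest array and every Bcl2l1-deleted array was above every control. With the chemosensory receptor median as a covariate neither passed (relative change 0.63 for Gabrb1 and 0.39 for Gabra4, adjusted p = 0.100 and 0.164), and the higher share of all genes tested was then 1.78%, and the lower share 2.62%. Without control replicate 2 both passed (adjusted p = 0.0234 and 0.0288).

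Gabrb1 and Gabra4 lie in a run on chromosome 5 that holds, in order, Gabrg1, Gabra2, Cox7b2, Gabra4 and Gabrb1. Gabrg1, a gamma subunit known from Bergmann glia, was at 7.49, 7.76, 7.84 and 7.57 in the Bcl2l1-deleted tumours and at 7.67, 5.76, 6.98 and 6.68 in the controls. Its change of 0.72 ± 0.33 (SE) did not pass (adjusted p = 0.104), control replicate 1 being within the range of the Bcl2l1-deleted arrays. Within this run Gabra2 was thus the gene that fell, and no test was made of the difference between neighbours, which were seen in these data first. The remaining GABA-A genes tested were Gabra3, Gabra5, Gabre, Gabrg3 and Gabrr2, with changes between -0.46 and 0.09.

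Neither GABA-B receptor gene passed. Gabbr1, which binds GABA, had 8.74, 9.23, 9.84 and 8.85 in the Bcl2l1-deleted tumours and 9.97, 9.52, 9.56 and 9.88 in the controls (change -0.74, SE 0.24, adjusted p = 0.141). Gabbr2, which couples the receptor to G proteins, had 8.22, 8.66, 9.60 and 7.53 in the Bcl2l1-deleted tumours and 9.53, 8.77, 9.17 and 9.77 in the controls (change -0.98, SE 0.38, adjusted p = 0.176). For both genes Bcl2l1-deleted replicate 3 lay within the range of the controls.

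Of 4 glycine receptor genes tested, Glra2 fell. It was at 4.51, 4.998, 5.40 and 4.30 in the Bcl2l1-deleted tumours and at 6.46, 5.42, 6.12 and 7.12 in the controls, with the groups just apart at Bcl2l1-deleted replicate 3 and control replicate 2 (relative change -1.65, SE 0.35, adjusted p = 0.0368). Glra1, the subunit of adult spinal cord and hindbrain, was at 4.38, 4.39, 4.57 and 4.205 in the Bcl2l1-deleted tumours and at 6.47, 4.83, 5.87 and 4.61 in the controls. Its groups did not overlap either, but the controls spread widely and the change of -1.23 ± 0.35 (SE) did not pass (adjusted p = 0.0848). Glrb, the beta subunit that anchors glycine receptors at synapses, was at 8.53 to 8.85 in the Bcl2l1-deleted tumours and at 7.93 to 9.09 in the controls (change -0.10, adjusted p = 0.856). Glra4 had a change of -0.11 (adjusted p = 0.756).

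Subunits of immature neurons were set beside those of mature neurons. Of 7 developmental subunit genes (Grin2b, Grin2d, Grin3a, Gabra2, Gabra3, Gabra5 and Glra2), 3 fell (42.9%, against 1.60% of all genes tested) and 4 did not pass. Their median relative change was -0.46. Of 6 measured mature subunit genes (Grin2a, Grin2c, Gabra6, Gabrb2, Gabrd and Glra1), 2 fell (33.3%, against the same 1.60%) and 4 did not pass. Their median was -1.18, where that of all genes tested is 0 by construction. That median includes Grin2a, which passed the dim filter only through the controls, and is given as a description. The mean log2 value over the developmental genes was 5.79, 6.01, 6.08 and 5.80 on the Bcl2l1-deleted arrays and 6.54, 5.87, 6.48 and 6.77 on the control arrays, with overlap at control replicate 2. Over the mature genes it was 4.75, 4.89, 5.70 and 4.27 on the Bcl2l1-deleted arrays and 6.69, 5.80, 5.90 and 6.38 on the control arrays, without overlap, with Bcl2l1-deleted replicate 3 the highest and replicate 4 the lowest of their group. This mean too includes Grin2a, without which Bcl2l1-deleted replicate 3 lies above control replicate 2 and the groups overlap. Among the developmental genes that did not pass, Gabra3, an alpha subunit of early neurons, had a change of 0.09 ± 0.25 (SE, adjusted p = 0.485), which took either sign over the alternatives, and Gabra5 a change of -0.46 ± 0.15 (SE, adjusted p = 0.221).

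**Figure D3:**
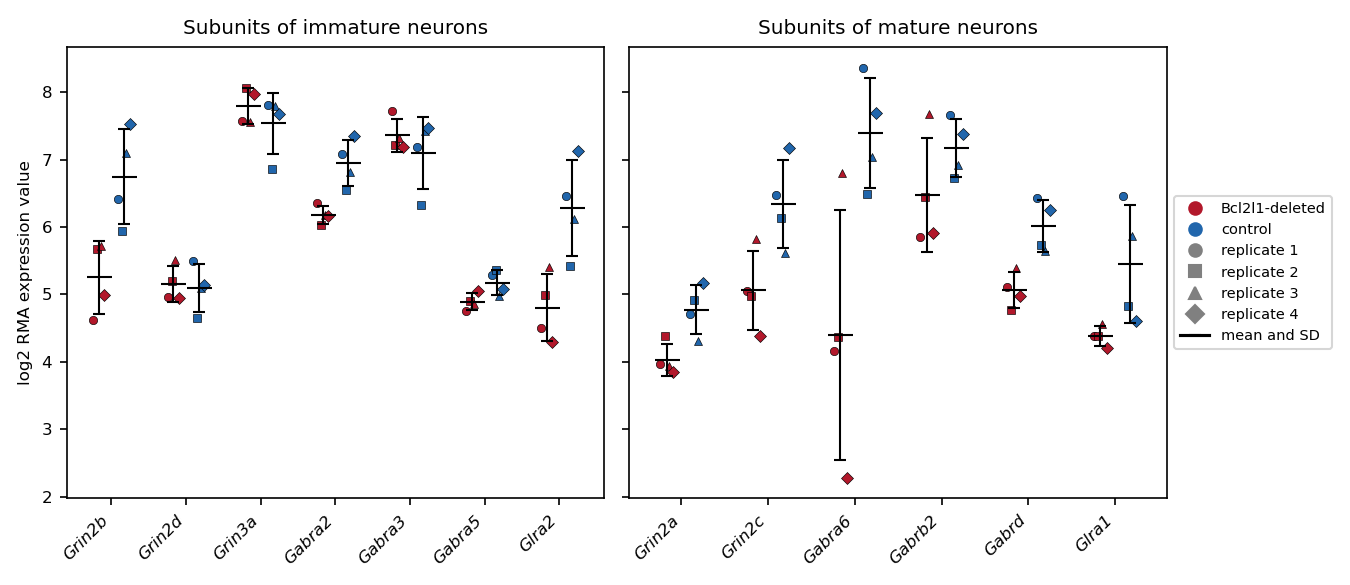
Log2 RMA values of 7 subunit genes of immature neurons (left panel) and 6 of mature neurons (right panel) on the 8 arrays, Bcl2l1-deleted arrays left of controls, with mean and SD (n = 4 each). Groups stand apart for Grin2b, Gabra2 and Glra2 in the left panel and for Gabrd and Glra1 in the right panel.

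Whether a mature and an immature partner changed unequally was tested on their difference within each array, over 4 pairs. For Gabra6 minus Gabra2 the difference averaged -1.78 ± 1.86 in the Bcl2l1-deleted tumours and 0.44 ± 0.58 in the controls (SD, n = 4 each, exact permutation test, two-sided, p = 0.114, adjusted p = 0.286). It was -2.205, -1.66, 0.62 and -3.87 on the Bcl2l1-deleted arrays and 1.28, -0.07, 0.21 and 0.34 on the control arrays, so Bcl2l1-deleted replicate 3 alone kept the groups from standing apart. For Slc12a5 minus Slc12a2, the chloride exporter of mature neurons and the chloride importer of immature cells, the averages were -2.74 ± 1.21 and -1.61 ± 0.32 in the same order of groups (SD, n = 4 each, exact permutation p = 0.143, adjusted p = 0.286). Grin2c minus Grin2b and Glra1 minus Glra2 changed by 0.21 and 0.42 (exact permutation p = 0.657 and 0.714, adjusted p = 0.714 for each), with signs that turned when a single array was left out. The smallest p these group sizes allow is 0.0286, before adjustment over the 4 pairs. After that adjustment a single pair with this p would still not pass the threshold. The tests therefore cannot decide whether partners changed unequally in any single pair, and an unequal change may have gone undetected.

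Genes that serve these receptors were counted from 3 lists of partners, transmitter enzymes and transporters. Of 68 such genes tested, 4 fell (5.88%, against 1.60% of all genes tested) and 3 rose (4.41%, against 4.93%), with a median relative change of -0.15. The share that rose was thus no higher than that of all genes. Among 36 partners of glutamate receptors 1 fell and 1 rose (2.78% each, against 1.60% and 4.93% of all genes tested). Cbln3, a secreted cerebellin of granule neurons, fell, with 5.85, 6.05, 7.77 and 5.25 in the Bcl2l1-deleted tumours and 8.66, 8.17, 7.99 and 8.77 in the controls (relative change -2.35, SE 0.44, adjusted p = 0.0247). Shisa9, an auxiliary subunit of AMPA receptors, rose, with 8.72, 8.50, 8.80 and 7.82 in the Bcl2l1-deleted tumours and 7.53, 7.06, 7.94 and 7.40 in the controls (relative change 0.80, SE 0.25, adjusted p = 0.0443). Bcl2l1-deleted replicate 4 and control replicate 3 crossed for Shisa9.

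Among 14 partners of inhibitory receptors, Kctd16, an auxiliary subunit of GABA-B receptors, fell (7.14%, against 1.60% of all genes tested). None rose, in limma, where 1 was higher at an unadjusted p under 0.05. Kctd16 was at 4.73, 4.96, 4.78 and 4.64 in the Bcl2l1-deleted tumours and at 5.44, 5.10, 5.67 and 5.70 in the controls (relative change -0.87, SE 0.17, adjusted p = 0.0398). Slc12a5 had 6.06, 6.04, 7.84 and 4.89 in the Bcl2l1-deleted tumours and 7.74, 6.40, 6.91 and 7.596 in the controls (change -1.13, SE 0.52, adjusted p = 0.234), again with the highest value of all arrays on Bcl2l1-deleted replicate 3. Slc12a2 had a change of 0.01 (adjusted p = 0.601).

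Of 19 genes of transmitter synthesis and transport, 2 fell and 2 rose (10.5% each, against 1.60% and 4.93% of all genes tested). Slc17a7, the vesicular glutamate transporter of granule neurons, was at 4.51, 5.34, 6.18 and 4.19 in the Bcl2l1-deleted tumours and at 8.04, 6.89, 6.75 and 7.73 in the controls (change -2.47, SE 0.42, adjusted p = 0.0197). Slc6a5, the glycine transporter of glycinergic neurons, was at 4.80, 5.17, 5.90 and 4.21 in the Bcl2l1-deleted tumours and at 7.16, 6.06, 6.59 and 6.64 in the controls (change -1.77, SE 0.34, adjusted p = 0.0272). Slc6a13, a GABA transporter of the meninges, rose by 1.05 ± 0.28 (SE, adjusted p = 0.0347), with Bcl2l1-deleted replicate 4 at 7.40 below control replicate 1 at 7.52. Slc1a1, a glutamate transporter of neurons, rose by 0.71 ± 0.22 (SE, adjusted p = 0.0402), with 8.91, 8.76, 8.54 and 8.53 in the Bcl2l1-deleted tumours and 8.33, 7.27, 7.84 and 7.77 in the controls. The enzymes that make GABA did not pass, Gad1 with a change of -0.40 and Gad2 with -1.03 (adjusted p = 0.763 and 0.184).

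Markers of cell types moved beside the receptors. Markers of differentiated granule neurons, in which Gabra6, Gabrd and Grm4 are normally found, averaged 7.28 to 8.02 on the Bcl2l1-deleted arrays and 8.18 to 9.25 on the control arrays. Of these 9 markers, 5 were lower (55.6%, against 1.60% of all genes tested). They were Cntn2, Cbln3, Fat2, Slc17a7 and Reln, of which Cbln3 and Slc17a7 are also counted above. Granule progenitor markers averaged 9.98 to 10.15 and 9.51 to 10.11 in the same order, and 0 of 9 passed in limma, where 1 was higher at an unadjusted p under 0.05. Purkinje cell markers averaged 7.02, 8.59, 10.21 and 5.56 on the Bcl2l1-deleted arrays and 9.74, 8.97, 8.63 and 9.27 on the control arrays. They were thus highest on Bcl2l1-deleted replicate 3 and lowest on Bcl2l1-deleted replicate 4, the arrays on which Gabra6 was highest and lowest within that group. Within that group the same held for the differentiated granule neuron means (8.02 on replicate 3 and 7.28 on replicate 4). It also held for the interneuron, astrocyte and Bergmann glia, oligodendrocyte and microglia means. Granule progenitor and oligodendrocyte precursor means were instead highest on Bcl2l1-deleted replicate 4. Of the Purkinje cell markers, 0 of 5 passed, with 0 at an unadjusted p under 0.05. Inhibitory interneuron markers averaged 5.04 to 6.80 and 5.88 to 6.67 in the order of the groups above, with Pax2 below the dim filter. Of 6 tested, 1 was lower (16.7%), namely Slc6a5, which is also counted above.

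Beside Gabrb1, Gabra4 and Gabrg1, astrocyte and Bergmann glia markers averaged 8.998 to 9.58 on the Bcl2l1-deleted arrays and 8.28 to 9.19 on the control arrays. Of these 8 markers, 3 were higher (Aqp4, Aldh1l1 and S100b, 37.5%, against 4.93% of all genes tested). In this list 6 changes were above the median gene and 2 below it, those of Gdf10 (-0.32) and Fabp7 (-0.16), neither of which passed. Oligodendrocyte precursor markers averaged 8.42 to 8.90 on the Bcl2l1-deleted arrays and 7.905 to 8.48 on the control arrays. Of these 6 markers, 2 were higher (33.3%), while 3 changes were above the median gene and 3 below it. Microglia markers averaged 8.06 to 8.30 on the Bcl2l1-deleted arrays and 6.85 to 7.74 on the control arrays, with 4 of 8 higher. Oligodendrocyte markers averaged 6.73 to 8.22 and 7.88 to 9.20 in the same order. Of these 6 markers, 2 were lower (33.3%, against 1.60% of all genes tested). Among their changes 5 were below the median gene and 1 above it, that of Cnp (0.47), which did not pass. The part of these cell types in the receptor changes was not tested.

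**Figure D4:**
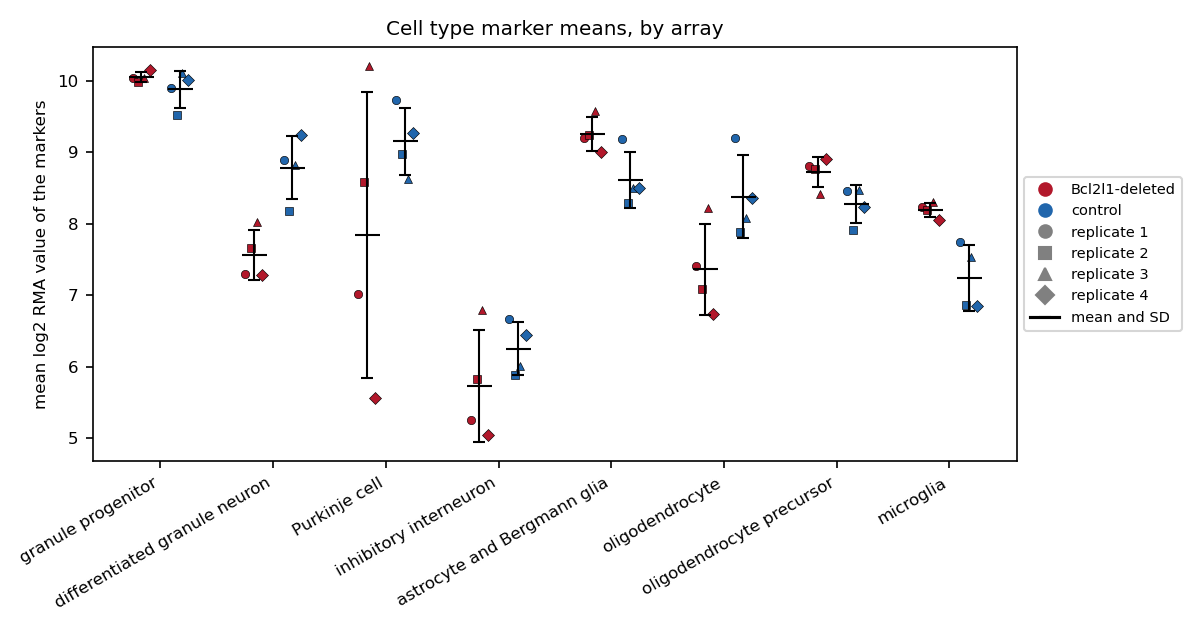
Mean log2 RMA value of the markers of 8 cell types on each array, Bcl2l1-deleted arrays left of controls, with mean and SD of the arrays (n = 4 each). The differentiated granule neuron means do not overlap (7.28 to 8.02 and 8.18 to 9.25), and the Purkinje cell means span 5.56 to 10.21 among the Bcl2l1-deleted arrays.

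**Figure D5:**
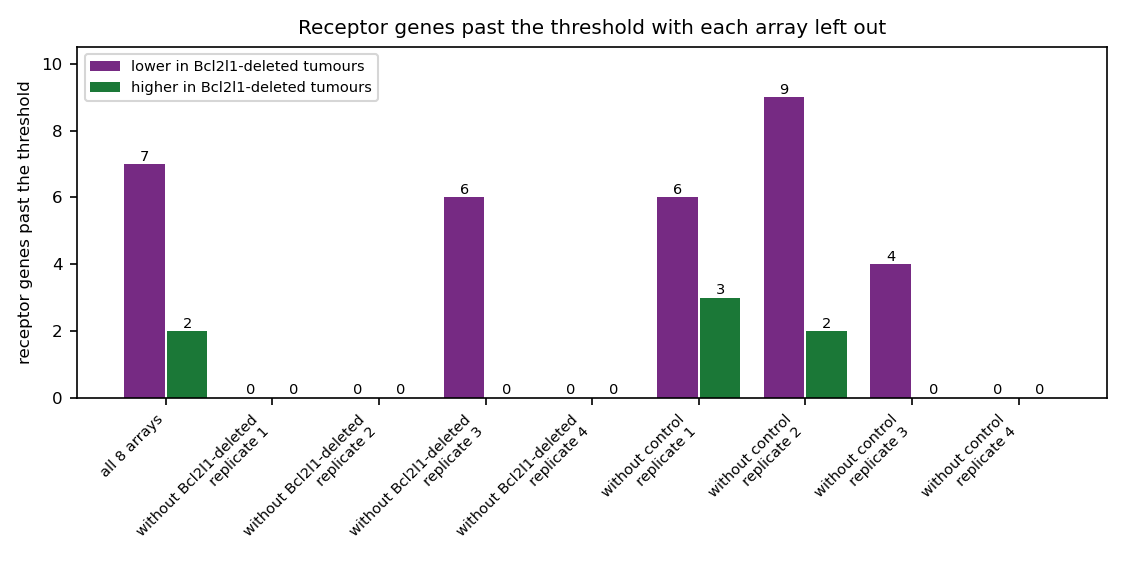
Number of receptor genes past an adjusted p of 0.05 with all 8 arrays and with each array left out in turn, lower and higher in Bcl2l1-deleted tumours as separate bars. With all arrays 7 were lower and 2 higher, and the lower count ranged between 0 and 9 over the fits with an array left out.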

How the data were processed

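Total RNA of medulloblastomas was hybridised to 8 Affymetrix arrays, 4 in each group. The deposited values are log2 RMA expression values made by the authors in Partek, per the labels, with the version, workflow options and genome build not given in the sources used here. As usually run, the RMA method subtracts background, aligns the arrays and condenses the probes of a set, which shrinks differences of dim genes. The deposited arrays still differed, with medians over all probe sets between 4.765 (Bcl2l1-deleted replicate 1) and 5.169 (control replicate 2). Whether and how the arrays were aligned is not given in the sources used here. Groups came from the sample titles.

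Of 41345 probe sets, 23521 name a single gene, 1814 several and 16010 none by the platform annotation. A RefSeq table (GRCm38.p6) matched 23328 of the single names by Entrez identifier, changed 0, and served otherwise only for the order of neighbouring genes. The highest-mean probe set of each gene was kept (22180 genes, with several probe sets for 5 members), and 15526 with a mean above 4.38, the 30th percentile, were tested. Group differences came from limma (version 3.58.1, R version 4.3.3), two-sided and without covariates, with Benjamini-Hochberg adjustment over all of these. Tested on simulated data for this comparison (15526 genes), this recovered 95.0% of 100 genes given a change of 2 log2 and 56.0% of 100 given 1, with 9 false calls. The simulated noise was independent between genes, without deviations of a whole array such as that of control replicate 2. These figures may therefore not hold for the real arrays. Pairs of genes were compared by exact permutation over 70 regroupings.

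Some genes of these families are not reported here. Members and lists were chosen with earlier results of these data known. Named genes were Bcl2l1, receptor genes past the threshold, the members of the developmental and mature lists, the member with the highest mean in each receptor class (levels of different probe sets do not rank amounts of RNA), up to 6 pathway genes past the threshold in each list, and the genes of the pairs. The alternatives were other dim filters, prior settings, scalings, covariates, array weights, a replicate block, another choice of probe set, and leaving out arrays.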

Additional observations from a re-analysis of the deposited data

Results flagged for a closer look

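Grin3a was 6.87 on control replicate 2, far below the other controls (7.68 to 7.81), its gap to the nearest being 0.862 of the range of the group. Among 74 groups of 4 arrays examined, over the named genes and pairs, it was the only group of which this held, and chance alone gives about 1 in 20. The same array had the narrowest signal range and the highest chemosensory receptor median.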

How the results depend on the processing

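The numbers of receptor genes lower and higher, 7 and 2 with all arrays, were 2 and 1 without a dim filter, 4 lower when centred on all probe sets, 2 and 0 with a replicate block, 1 and 0 with the Xist level as a covariate, and 11 lower without both control replicate 2 and Bcl2l1-deleted replicate 3 (chosen after seeing the data). The higher count was 1 with an intensity trend, a robust prior or centring on the genes tested, and 0 with the chemosensory receptor median as a covariate. Leaving out each replicate in turn gave 0 to 9 lower and 0 to 3 higher. Pathway genes lower, 4 in all arrays, numbered 11 centred on the genes tested, 12 with array weights, 7 with the chemosensory median, 0 with Xist, 19 without the same pair of arrays and 0 to 8 with each replicate left out. Pathway genes higher, 3 in all arrays, numbered 1 without a dim filter, 1 after centring on tested genes, 0 with the chemosensory median or Xist, and 0 to 3 with each replicate left out. At an unadjusted p under 0.05, 9 to 17 receptor genes were lower and 2 or 3 higher in every setting with all or some arrays, apart from 7 lower with the dim filter at the 50th percentile. In that setting only 26 receptor genes were tested.

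Same-numbered arrays of the groups did not deviate together (correlations of 0.039, 0.023, -0.135 and 0.053 for numbers 1 to 4), so the replicate block is no stated pairing. It left Grin2b and Grm4 called of the 9 receptor genes. Bcl2l1 passed the threshold in each of the 21 alternatives.

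Small changes that never passed turned sign, and the cause was not tested. Grin2d was 0.0218 without a dim filter and 0.10 quantile-normalized. Grin3a was -0.0002 with the dim filter at the 50th percentile, -0.0358 quantile-normalized, -0.0015 with array weights, -0.17 with the chemosensory median and -0.0556 to 0.16 with each replicate left out. Gabra3 was -0.10 with array weights, -0.20 with the chemosensory median, -0.0763 without both arrays named above and -0.0856 to 0.18 with each replicate left out. Grid1 was -0.0172 with the dim filter at the 50th percentile, -0.0233 quantile-normalized, -0.0833 with the chemosensory median and -0.0170 to 0.13 with each replicate left out. Glrb was 0.0306 without a dim filter and -0.27 to 0.0007 with each replicate left out. Grm2 was -0.10 with the chemosensory median and -0.10 without both arrays. Slc12a2 was -0.0755 with the dim filter at the 50th percentile, -0.11 quantile-normalized, -0.10 with array weights, -0.27 with the chemosensory median, -0.0491 with Xist, -0.18 without both arrays and -0.12 to 0.13 with each replicate left out. The pair Grin2c minus Grin2b was -0.0022 over the mean of probe sets and -0.16 to 0.40 with each replicate left out, and Glra1 minus Glra2 was -0.14 to 0.70. A further planned pair was not run.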
